A study of Mus musculus with 2 samples.

Results

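The genes described here are 10 transcription factors of the somatic gonad, the supporting and hormone-making tissue around the germ cells, and of the coelomic epithelium it grows from: *Wt1*, *Emx2*, *Sox9*, *Nr5a1*, *Nr0b1*, *Gata4*, *Gata6*, *Tcf21*, *Lhx9* and *Nr2f2*. They were chosen by name. Their levels are sums of the sense tags that matched transcripts of 1 gene only, with at most 1 mismatch. Of the 10 genes, 9 had a listed tag in at least 1 library and are among the 14450 mouse genes that did. *Nr0b1* had none.

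Digital gene expression (DGE) tag profiling was applied to 1 library of GC-1spg cells and 1 library of GC-2spd (ts) cells, to ask how expression differs between early stages of spermatogenesis. GC-1spg is a mouse line derived from type B spermatogonia of a 10 day old animal and transformed with pSV3-neo, a plasmid that carries the SV40 early region. GC-2spd (ts) is a mouse line derived from spermatocytes of a 6 week old animal and transformed with the SV40 large T antigen. Both lines are therefore transformed and were grown in the same way, in DMEM with fetal bovine serum and sodium bicarbonate. The labels place GC-1spg later than its cell of origin, near the entry into the spermatocyte stage, and GC-2spd (ts) earlier than meiosis. The libraries held 5072149 and 4726808 clean tags, and 1 copy was worth 0.197 TPM in GC-1spg, against 0.212 TPM in GC-2spd (ts), where TPM scales the copies of a tag to 1000000 clean tags. With 1 library per line there is no replicate check, and every test below compares those 2 libraries, not the cell types.

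In the embryo, the coelomic epithelium over the mesonephros thickens into the genital ridge, and *Wt1*, *Emx2*, *Lhx9*, *Gata4* and *Nr5a1* are all needed for the ridge to form or persist. In the testis, *Sox9* then directs Sertoli cell development, *Nr5a1* (SF-1) drives steroid synthesis in Leydig cells, and *Tcf21* and *Nr2f2* mark interstitial and steroidogenic progenitor cells. In the adult testis these factors are known chiefly from somatic cells rather than germ cells.

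The tags below carried most of the counts of each gene and are the measurements that the levels rest on. Capitals mark the CATG at which *Nla*III cuts, and lower case marks the 17 bases after it. *Lhx9* is shown with a second tag because it lies in another annotated transcript than the first, *Sox9* because its first and second tags had nearly equal counts, and *Nr0b1* with the tag its transcript would give at the CATG nearest the 3′ end, which was in neither library. No sequence is shown for *Gata6*.

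Wt1: CATGtgtatgtgcctgctaat
Emx2: CATGggagttttcaagcactg
Sox9, first tag: CATGcctctgcaagtgtgtgt
Sox9, second tag: CATGgaggacgattggagaat
Nr5a1: CATGgctccatccttttggtc
Nr0b1, in neither library: CATGcatagtatatttgtatt
Gata4: CATGcctgcccctcctccaca
Tcf21: CATGaatgactgcaagcctgg
Lhx9, first tag: CATGcacttttgcatctaaca
Lhx9, second tag: CATGttcctttgtttattgat
Nr2f2: CATGacaaaataacactgttg

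The 10 genes differed in which line carried them. *Wt1* and *Gata6* fell in GC-2spd (ts) relative to GC-1spg, *Nr5a1*, *Gata4*, *Lhx9* and *Nr2f2* rose, and *Emx2*, *Sox9* and *Tcf21* were listed but not called. Calls needed a false discovery rate (FDR) of at most 0.001 in the two-sided Audic-Claverie test, adjusted over all 14450 genes, together with a log2 ratio beyond 1 in either direction. The 4 calls in the higher direction stand beside 11.7% of all genes called higher, and the 2 in the lower direction beside 7.84% of all genes called lower. Since a whole cell population was sampled, fewer cells with a transcript and less of it per cell cannot be told apart. For genes with tags in each library, scaling by TMM shifted the log2 ratio by -0.17, which took the share of called genes that were higher in GC-2spd (ts) from 59.8% to 47.2%, and with DESeq2 size factors to 48%. The median log2 ratio of the 9 listed factors was 1.28 beside 0.13 over all genes, with 0.5 tags added to both counts, and 0.77 beside 0 with each gene of 1 library at the lower bound of its change. The 6 calls among these transcription factors were the same under both scalings.

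**Figure D1:**
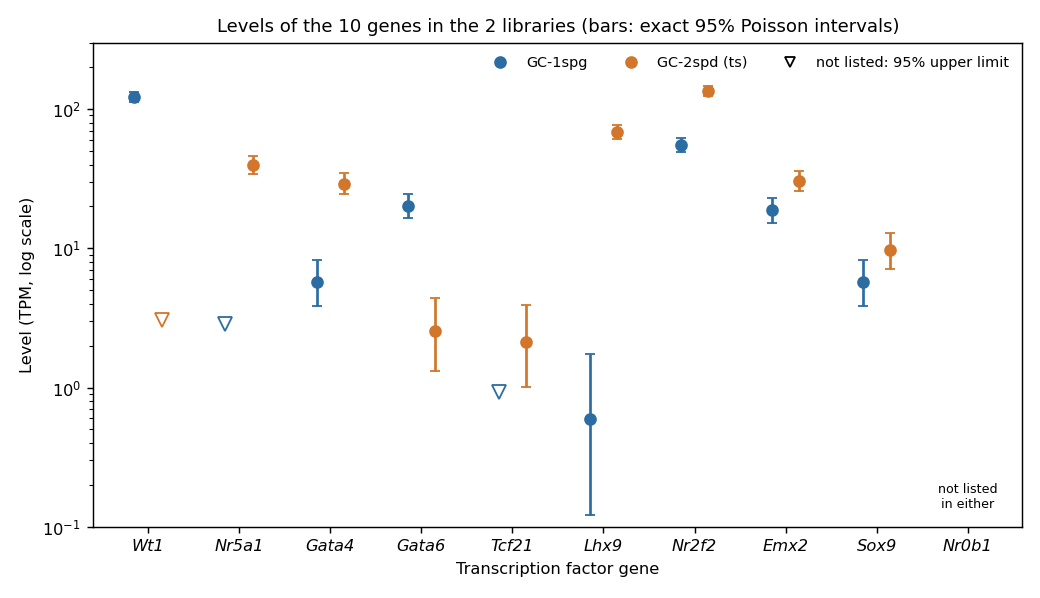
Level of each of the 10 genes in TPM (log scale) in GC-1spg (blue) and GC-2spd (ts) (orange), 1 library each, with exact 95% Poisson intervals as bars and, for a gene not listed in 1 library, an open triangle at its 95% upper limit. *Wt1* stood at 122 TPM in GC-1spg only, *Nr5a1* at 39.8 TPM in GC-2spd (ts) only, and *Nr0b1* had no tag.

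Among the factors of the coelomic epithelium and Sertoli cells, *Wt1*, a zinc finger protein of the mesothelium, podocytes and Sertoli cells, differed most. It lies at chr2:105126529-105173616 on the plus strand of GRCm38. *Wt1* had 620 copies in GC-1spg, or 122 TPM (exact 95% Poisson interval 113 to 132), and no listed copy in GC-2spd (ts). That level exceeded 93% of the genes listed in GC-1spg. Because the authors removed tags seen once, each of the 8 *Wt1* tags could hide 1 copy in GC-2spd (ts), and the one-sided 95% limit for such a total is 3.05 TPM. *Wt1* was therefore lower in GC-2spd (ts) by a factor of at least 36.9, the lower end of its interval over that limit (FDR = 7.51e-176, Audic-Claverie). That limit covers the 8 tags listed in GC-1spg. *Wt1* has 16 tags found in no other gene, and allowing 1 copy for each would make this factor smaller. Of the 1693 genes listed in GC-1spg only, 6 had at least as many copies, *Wt1* itself included.

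The *Wt1* counts came largely from 1 place. The tag printed above, at chr2:105172743-105172763 in the 3′ UTR of exon 9, the last exon, held 585 of the 620 copies, or 94.4% (exact 95% interval 92.2 to 96.0). The other 7 tags had 2 to 15 copies each and were spread over exons 1, 4, 6, 8 and 9 of coding transcripts and over noncoding transcripts. All 8 were absent from GC-2spd (ts), so the absence did not depend on 1 site.

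*Wt1* is flanked by *Wt1os*, a noncoding RNA transcribed from the opposite strand. Their annotated starts are separated by 18 bases, chr2:105126511-105126528, which RefSeq gives in the direction of *Wt1* as follows (GRCm38.p6, lower case throughout, 66.7% G or C). The most abundant *Wt1os* tag, from its exon 4, is shown with its CATG in capitals.

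Between the starts of Wt1os and Wt1: gagctaggctagggctgc
Wt1os: CATGctggggtgggctttgtt

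*Wt1os* had 38 copies in GC-1spg over 3 tags, with 23, 10 and 5 copies, and none in GC-2spd (ts). In GC-2spd (ts) it was lower by a factor of at least 3.23 (FDR = 9.64e-11, Audic-Claverie). The pair was thus listed together in 1 library and absent together from the other, with 620 copies of *Wt1* beside 38 of *Wt1os*.

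*Emx2*, a homeobox gene needed for the epithelium of the genital ridge and the urogenital tract, was found in both lines. It lies at chr19:59458372-59465357 and had 96 copies in GC-1spg (18.9 TPM, interval 15.3 to 23.1) against 144 in GC-2spd (ts) (30.5 TPM, interval 25.7 to 35.9). The ratio was 1.61-fold, or 0.69 on the log2 scale (exact 95% interval 0.30 to 1.07), with an FDR of 0.00102 in the Audic-Claverie test, so it missed both thresholds. Its main tag, at chr19:59465151-59465171 in the 3′ UTR of exon 2, held 83 and 121 copies, and 2 further tags with 2 copies each differed from it by 1 base. *Emx2os*, a noncoding RNA on the opposite strand, overlaps the first bases of *Emx2* and had 12 and 15 copies of its own tag, without a call.

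*Sox9*, the high mobility group factor of Sertoli cells, was low in both lines. It lies at chr11:112782224-112787760 and had 29 copies in GC-1spg (5.72 TPM) against 46 in GC-2spd (ts) (9.73 TPM), giving a log2 ratio of 0.77 (interval 0.07 to 1.49) that did not pass the test (FDR = 0.0627, Audic-Claverie). Its counts were divided between the tag at the last CATG, with 15 and 20 copies, and a tag at the fourth CATG from the 3′ end, with 12 and 22 copies. *Sox9* also had 23 antisense copies in GC-1spg, beside 51 in GC-2spd (ts), and with these added its log2 ratio became 1.0 and was called.

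The steroidogenic factors were seen in 1 line or in neither. *Nr5a1*, the nuclear receptor SF-1, which switches on steroidogenic enzymes, lies at chr2:38692656-38714542 on the minus strand. It had no listed copy in GC-1spg against 188 copies in GC-2spd (ts), or 39.8 TPM (interval 34.3 to 45.9). With the limit of 2.85 TPM in GC-1spg, *Nr5a1* was higher in GC-2spd (ts) by a factor of at least 12.0 (FDR = 2.3e-58, Audic-Claverie). Of the 1384 genes listed in GC-2spd (ts) only, 9 had at least as many copies, *Nr5a1* itself included.

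The 8 tags of *Nr5a1* were all confined to GC-2spd (ts). The main tag, at chr2:38693006-38693026 in the 3′ UTR of exon 7, held 154 copies, or 81.9% (interval 75.7 to 87.1). A second tag in that UTR had 16 copies, and 6 tags in coding exons had 2 to 7. *Nr5a1os*, which overlaps the first part of *Nr5a1* on the other strand, was listed in neither library.

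*Nr0b1* (DAX-1), an X-linked repressor that binds SF-1, had no copy in either library. Its transcript at chrX:86191764-86195947 offers 5 tags found in no other gene, so it could have been seen. Its pattern therefore differed from that of *Nr5a1* in GC-2spd (ts), where the receptor was listed and the repressor was not detectable at this depth.

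The GATA factors, zinc finger proteins that act with SF-1 and WT1 at gonadal promoters, moved in opposite directions. *Gata4*, at chr14:63198922-63271692, had 29 copies in GC-1spg (5.72 TPM, interval 3.83 to 8.21) against 138 in GC-2spd (ts) (29.2 TPM, interval 24.5 to 34.5). In GC-2spd (ts) it was 5.11-fold higher, at a log2 ratio of 2.35 (interval 1.77 to 2.98; FDR = 7.19e-19, Audic-Claverie). Each of its 3 tags lay in the 3′ UTR of exon 6, and the main one, at chr14:63198997-63199017, held 27 and 126 copies.

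*Gata6*, on chromosome 18, had 103 copies in GC-1spg (20.3 TPM, interval 16.6 to 24.6) against 12 in GC-2spd (ts) (2.54 TPM, interval 1.31 to 4.43). In GC-2spd (ts) it was 8.0-fold lower, at a log2 ratio of -3.0 (interval -4.00 to -2.13; FDR = 4.71e-17, Audic-Claverie). A tag in the 3′ UTR of exon 7 supplied 100 and 12 of these copies, and a coding tag in exon 3 the remaining 3. *Gata6* was thus the more abundant of the pair in GC-1spg and *Gata4* in GC-2spd (ts). A DGE tag is taken once per transcript molecule, so levels of different genes are compared without a correction for length. The noncoding RNA *1010001N08Rik*, which overlaps the start of *Gata6* on the opposite strand, had 3 copies in GC-1spg and none in GC-2spd (ts), too few for a call.

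**Figure D2:**
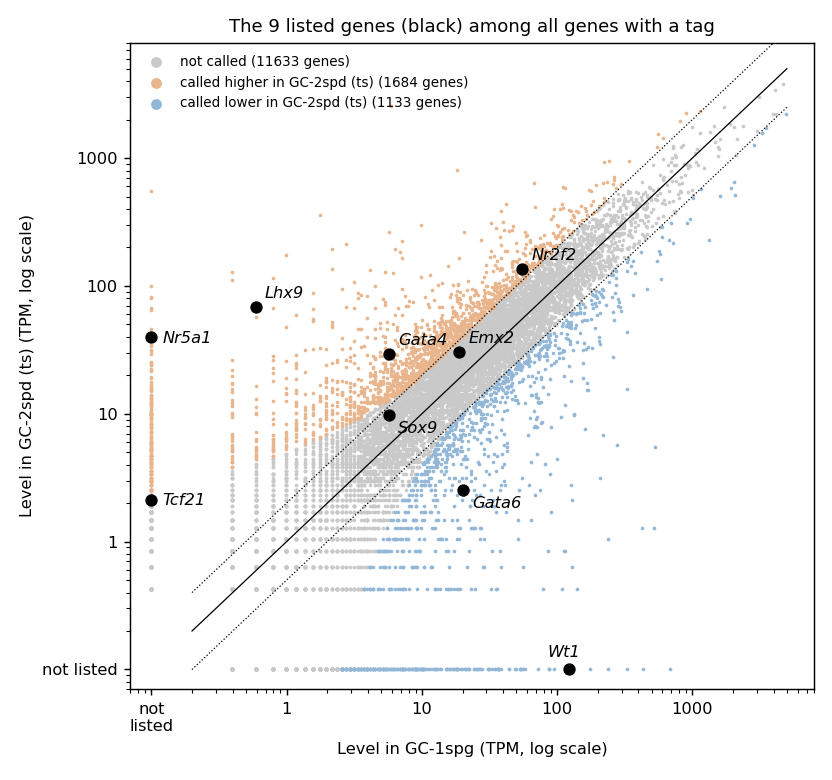
Level in GC-2spd (ts) against level in GC-1spg (TPM, log scales) for all 14450 genes with a tag, with the 9 listed transcription factors in black, a solid line at equal levels and dotted lines at 2-fold. *Wt1* lies on the lower edge, where genes not listed in GC-2spd (ts) are drawn, *Nr5a1* and *Tcf21* on the left edge, and *Lhx9* close to it with 3 copies in GC-1spg.

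Of the factors of the coelomic epithelium and interstitium, *Lhx9* had the widest ratio that could be measured in both libraries. *Lhx9*, a LIM homeobox factor that acts upstream of *Nr5a1* in the genital ridge, lies at chr1:138825186-138848577 on the minus strand. It had 3 copies in GC-1spg (0.591 TPM, interval 0.122 to 1.73) against 325 in GC-2spd (ts) (68.8 TPM, interval 61.5 to 76.7). The log2 ratio of *Lhx9* was 6.86 (interval 5.30 to 9.15; FDR = 1.38e-95, Audic-Claverie). The 3 copies in GC-1spg were those of its main tag.

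The main tags of *Lhx9* belonged to different annotated transcripts. The first tag, at chr1:138828088-138828108, had 190 copies in GC-2spd (ts) and lies in the 3′ UTR of a 5-exon transcript, at the 15th CATG from its annotated 3′ end. The second tag, at chr1:138829245-138829265, had 89 copies and lies at the last CATG of a 7-exon transcript. The other 6 tags had 3 to 17 copies. When only the CATG nearest the 3′ end of each transcript was allowed, *Lhx9* had no listed copy in GC-1spg and was still called higher in GC-2spd (ts).

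*Nr2f2* (COUP-TFII), an orphan nuclear receptor of mesenchyme and of Leydig progenitors, was abundant in both lines. It lies at chr7:70351944-70366735 and had 281 copies in GC-1spg (55.4 TPM, interval 49.1 to 62.3) against 636 in GC-2spd (ts) (134.6 TPM, interval 124.3 to 145.4). In GC-2spd (ts) it was 2.43-fold higher, at a log2 ratio of 1.28 (interval 1.08 to 1.49; FDR = 1.06e-36, Audic-Claverie). This ratio is near the threshold, and the call was lost with edgeR's exact test at an assumed BCV (coefficient of biological variation) of 0.2 or 0.4.

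*Nr2f2* had 11 sense tags, more than any other of the 10 genes. The main tag, at chr7:70353642-70353662 in the 3′ UTR of exon 3, had 162 and 344 copies, and a coding tag in exon 3 had 55 and 154. Tags at 2 further places in the 3′ UTR had 35 and 62 copies and 18 and 54 copies, and the remaining 7 had at most 6 copies in a library. *B130024G19Rik*, a noncoding RNA that overlaps the first part of *Nr2f2* on the opposite strand, had 2 and 11 copies and was not called.

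*Tcf21*, a basic helix-loop-helix factor of the coelomic epithelium and testis interstitium, was at the edge of detection. It lies at chr10:22817281-22820174, and 10 copies of 1 tag, at chr10:22817493-22817513 in the 3′ UTR, were found in GC-2spd (ts) (2.12 TPM, interval 1.01 to 3.89), with none in GC-1spg. *Tcf21* was not called (FDR = 0.00373, Audic-Claverie). Of the genes listed in GC-2spd (ts) only, 239 had at least as many copies, *Tcf21* itself included. *Gm10824*, which covers *Tcf21* on the other strand, had no copy in either library.

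**Figure D3:**
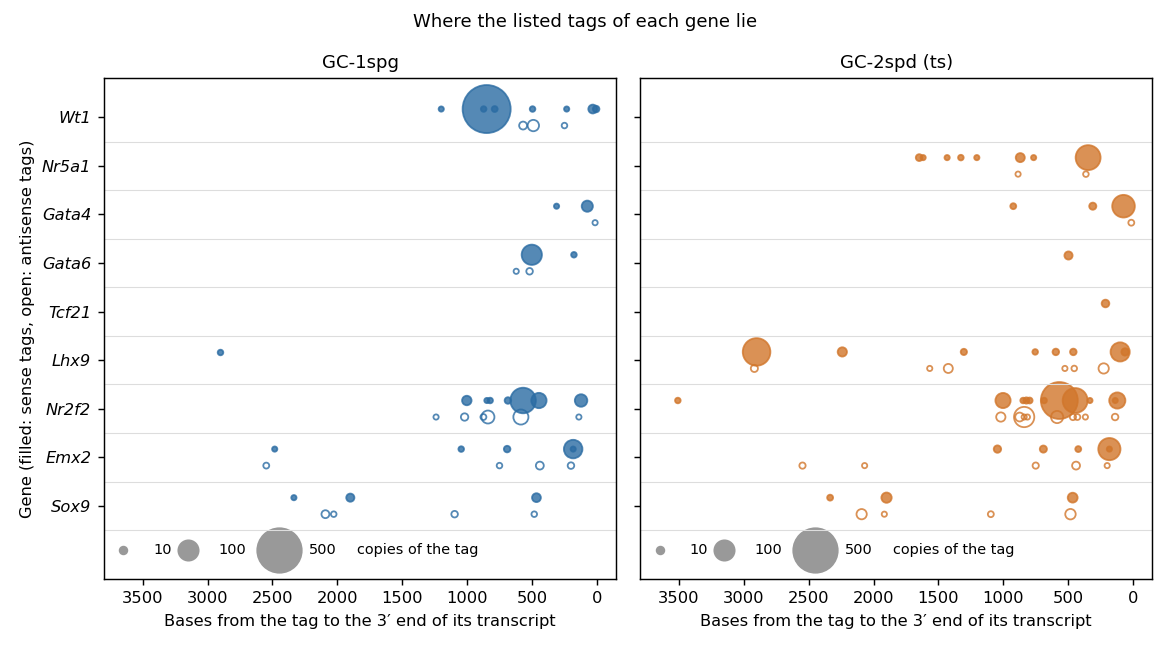
Position of every unambiguous tag of the 9 listed genes in GC-1spg (left) and GC-2spd (ts) (right). Positions are the fewest bases between the tag and the 3′ end of any annotated transcript of the gene that holds it. The area of a point rises with its copies, with filled points for sense tags and open points for antisense tags. Sense copies are less concentrated in 1 point in *Nr2f2* and *Sox9*, and in *Lhx9* in GC-2spd (ts), than in the other genes. The rows of *Wt1* in GC-2spd (ts) and of *Nr5a1* and *Tcf21* in GC-1spg are empty.

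The use of tag sites could be compared in the 6 genes listed in both libraries. The share of copies at the main site was 93.1% and 91.3% for *Gata4*, 97.1% and 100% for *Gata6*, 57.7% and 54.1% for *Nr2f2*, 88.5% and 85.4% for *Emx2*, and 51.7% and 43.5% for *Sox9*, with GC-1spg given before GC-2spd (ts). For *Lhx9*, with 3 copies in GC-1spg, it was 100% and 58.5%. None of the 6 differences passed (two-sided Fisher's exact tests, adjusted p from 0.953 to 1), and with so few copies of *Lhx9* and *Sox9* a shift between sites was not detectable at this depth. No listed sense tag of the 10 genes matched a second gene.

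Within a library the genes were ranked by copies, and neighbours in the ranking were tested against counting error only. In GC-1spg *Wt1* came first with 620 copies, followed by *Nr2f2* (281), *Gata6* (103), *Emx2* (96), *Gata4* and *Sox9* (29 each) and *Lhx9* (3). In GC-2spd (ts) *Nr2f2* came first with 636 copies, followed by *Lhx9* (325), *Nr5a1* (188), *Emx2* (144), *Gata4* (138), *Sox9* (46), *Gata6* (12) and *Tcf21* (10). Of the 13 pairs of neighbours, 4 did not differ beyond counting error: *Gata6* and *Emx2* (adjusted p = 0.872) and *Gata4* and *Sox9* (adjusted p = 1) in GC-1spg, and *Emx2* and *Gata4* and also *Gata6* and *Tcf21* (adjusted p = 0.901 for both) in GC-2spd (ts), in two-sided exact binomial tests. Taken over all 10 genes, the sum was 229 TPM in GC-1spg, of which *Wt1* made up 53.4%, and 317 TPM in GC-2spd (ts), of which *Nr2f2* made up 42.4%.

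The labels call both lines male germ cells, and the levels of germ cell genes stand beside those of the somatic factors. For this list and those below, the calls stand beside 11.7% of all genes called higher and 7.84% called lower. No list was tested as a set. Of 22 germ cell markers 2 were listed and 20 were not, among them *Ddx4*, *Dazl*, *Stra8*, *Sycp3* and *Dmc1*. The list summed to 65.3 TPM in GC-1spg against 14.0 TPM in GC-2spd (ts), with a median log2 ratio of -2.21 over the 2 listed genes, or -1.11 at the bound. Nearly all of it came from *Uchl1*, a ubiquitin hydrolase of spermatogonia and also of neurons, with 329 and 66 copies (called lower). *Spo11*, the nuclease that opens meiotic recombination, had 2 copies in GC-1spg and none in GC-2spd (ts). *Wt1* alone, at 620 copies in GC-1spg, outnumbered the whole list there. The list does not hold every meiosis gene. *Syce2*, a gene of the synaptonemal complex that is not on it, had 5 copies in GC-1spg against 821 in GC-2spd (ts). *Syce2* was called higher, at a log2 ratio of 7.46 (FDR = 6.57e-247, Audic-Claverie).

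Mesothelial and Sertoli cell markers were unequal in the same direction as *Wt1*. Of 12 mesothelial markers 11 were listed, 7 were called lower and 0 higher in GC-2spd (ts), and their median log2 ratio was -4.54 with 0.5 tags added to both counts, or -3.21 with genes of 1 library at their bound. The list summed to 1628 TPM in GC-1spg against 36.2 TPM in GC-2spd (ts), *Muc16* being at 0 in both. *Krt19*, a keratin, had 2666 and 26 copies, and *Upk3b*, a uroplakin of mesothelium, had 2187 copies in GC-1spg but none in GC-2spd (ts), lower by a factor of at least 73.2.

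Of 20 Sertoli cell markers 12 were listed, 5 were called lower and 1 higher, and the median log2 ratio was -1.95, or -0.64 with genes of 1 library at their bound. The list summed to 351 TPM in GC-1spg against 85.5 TPM in GC-2spd (ts). The lower calls with most tags were *Clu* (clusterin, 902 and 262 copies) and *Trf* (transferrin, 445 and 0 copies), both of which many other cells also secrete, and the higher call was *Abca5*, a membrane transporter (3 and 47 copies). The follicle-stimulating hormone receptor *Fshr*, *Cst9*, *Rhox5* and *Dmrt1* were at 0 in both libraries. The part of these markers in the difference of *Wt1* was not tested.

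Steroidogenic genes stood beside *Nr5a1* as follows. Of 15 steroidogenic and Leydig cell genes 6 were listed, 3 were called higher and 0 lower in GC-2spd (ts), with a median log2 ratio of 1.48, or 1.57 at the bound. The list summed to 179 TPM in GC-1spg against 313 TPM in GC-2spd (ts). *Fdx1*, the ferredoxin that passes electrons to mitochondrial P450 enzymes, had 155 and 475 copies, and *Scarb1*, a lipoprotein receptor, 57 and 218. Both also act in other tissues. The steroid enzymes *Cyp17a1*, *Hsd3b1* and *Hsd17b3*, the hormone *Insl3* and the receptor *Lhcgr* were at 0 in both, *Star* had 2 and 5 copies, and *Cyp11a1*, the first enzyme of steroid synthesis, had 2 copies in GC-1spg and none in GC-2spd (ts), where *Nr5a1* was listed. The part of these genes in the difference of *Nr5a1* was not tested.

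The interstitial progenitor and peritubular myoid list, beside *Tcf21* and *Nr2f2*, had 13 of 13 genes listed, 4 called higher in GC-2spd (ts) and 2 lower, and a median log2 ratio of 1.60, which became 0 at the bound. It summed to 203 TPM in GC-1spg against 307 TPM in GC-2spd (ts). The higher calls with most tags were *Acta2*, smooth muscle actin (50 and 555 copies), and *Igf1*, a growth factor (2 and 81 copies), and the lower calls included *Vcam1*, an adhesion molecule (129 and 30 copies). *Myh11*, a smooth muscle myosin, was at 2 copies in GC-2spd (ts) and none in GC-1spg. The part of these genes in the ratios of *Nr2f2* and *Tcf21* was not tested.

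Endothelial and macrophage markers were near 0. Of 10 only *Kdr*, a receptor of vascular endothelial growth factor, was listed, with 2 and 4 copies, and the list summed to 0.394 TPM and 0.846 TPM. Of 10 ovarian and granulosa cell genes 4 were listed, with *Runx1* called higher (76 and 230 copies) and *Wnt4* (141 and 36 copies) and *Fst* (40 and 6 copies) called lower. The median log2 ratio was -2.20, or -1.08 at the bound, the list summed to 53.0 TPM and 57.5 TPM, and *Foxl2*, the factor that maintains granulosa cells, was at 0 in both.

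**Figure D4:**
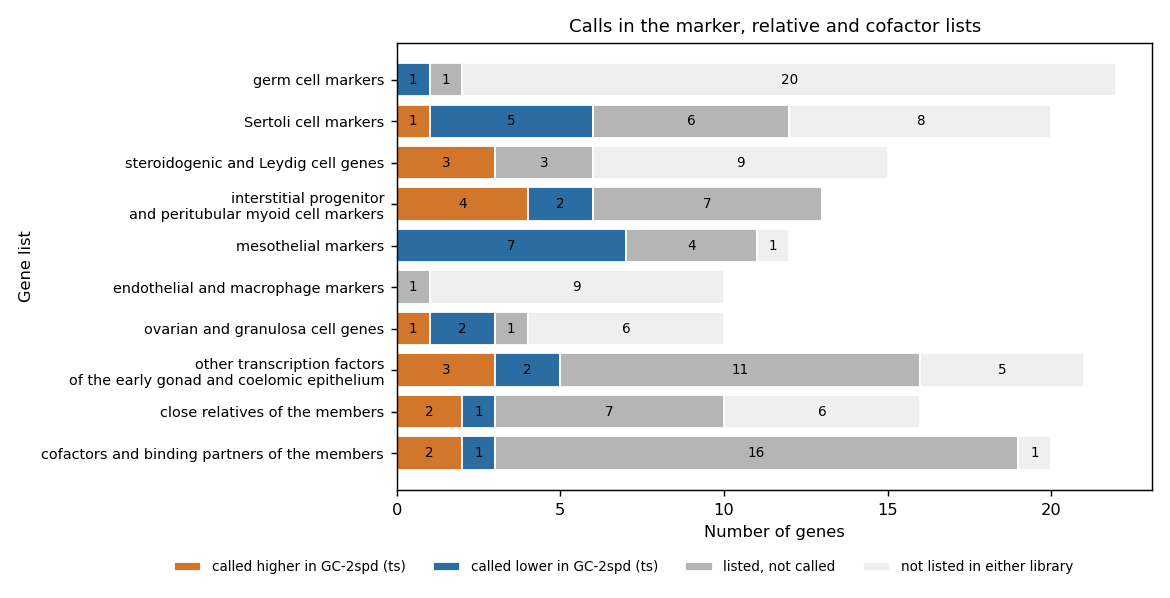
Number of genes in each list that were called higher in GC-2spd (ts) (orange), called lower (blue), listed but not called (grey) or not listed in either library (pale). Of the 22 germ cell markers 20 were not listed, and 7 of the 12 mesothelial markers were called lower.

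Among 21 other transcription factors of the early gonad and coelomic epithelium, 16 were listed, 3 called higher and 2 called lower, with a median log2 ratio of 0.17, the same at the bound. Over all genes, 11.7% were called higher and 7.84% lower. *Osr1*, a zinc finger factor of intermediate mesoderm, had no copy in GC-1spg but 113 in GC-2spd (ts), higher by a factor of at least 21.1, and *Runx1* was the other higher call with most tags. *Hand2*, a basic helix-loop-helix factor, had 478 copies in GC-1spg but none in GC-2spd (ts), lower by a factor of at least 38.7, a pattern shared with *Wt1*. *Sry* and *Dmrt1* were at 0 in both libraries.

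Close relatives of the 10 genes were mostly scarce. Of 16 relatives 10 were listed, 2 called higher and 1 lower, with a median log2 ratio of 0.50, or 0.21 at the bound. The shares over all genes were 11.7% higher and 7.84% lower. *Egr1*, an immediate early zinc finger factor related to *Wt1*, was called higher in GC-2spd (ts) (190 and 502 copies), as was *Msc*, a relative of *Tcf21* (3 and 48 copies). *Gata2* was called lower (28 and 4 copies), in the direction of *Gata6*. *Nr5a2*, the nearest relative of *Nr5a1*, was at 0 in both.

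Cofactors were expressed in both lines. Of 20 cofactors and binding partners 19 were listed in each library, 2 were called higher and 1 lower, and their median log2 ratio was 0.13, the same at the bound. These counts are near the shares over all genes, 11.7% higher and 7.84% lower. *Zfpm2* (FOG2), the partner of GATA4, had 51 and 64 copies, and *Basp1*, a corepressor of WT1, had 675 and 485, neither of them called. *Tcf4*, a helix-loop-helix factor that can pair with TCF21, was called higher (86 and 481 copies), as was *Ddx20*, a helicase that binds SF-1 (62 and 251 copies).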

How the data were processed

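DGE tags were counted in 1 library for each of the lines GC-1spg and GC-2spd (ts). Before deposit, the authors took out adaptors, tags of low quality and tags seen once, and the deposited values are the copy number (raw count) of each remaining tag and its TPM. The UniGene clusters to which the authors mapped were not used here. The smallest listed count is 2.

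Counts were matched to every CATG+17 tag of GENCODE M21 transcripts (GRCm38), exact matches first and then 1 mismatch, and unambiguous sense counts were summed per gene. The two-sided Audic-Claverie test was computed with Benjamini-Hochberg adjustment over 14450 genes, using 0.01 TPM for a gene at 0. It was tested on simulated data that held counting error only, without spread between cultures. edgeR's quasi-likelihood test needs replicates and could not be fitted. Intervals are exact at 95% and, like the limits for unlisted genes, cover counting error only, since PCR copies are not independent molecules. The limits allow 1 unlisted copy only for each tag listed in the other library, so factors given as at least a value depend on that allowance. The median log2 ratios used 0.5 added tags. The 15 alternatives covered matching, scaling, tests and filters.

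The 10 genes and all lists were chosen with earlier results of these data known. The text names every one of the 10 genes, listed genes on the opposite strand over them or starting within 5 kb, and of each list the 2 genes called in each direction with most tags. Some genes that this rule names are not reported here. Genes named at 0 or uncalled in a list, and *Nr5a1os*, *Gm10824*, *Nr5a2*, *Zfpm2*, *Basp1* and *Syce2*, were chosen after their values were seen. Promoter sequence came from RefSeq. Python 3.11.15, scipy 1.17.1, R 4.3.3, edgeR 4.0.16 and DESeq2 1.42.0 were used.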

Additional observations from a re-analysis of the deposited data

Results flagged for a closer look

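Antisense tags that matched 1 gene only, which the levels above do not use, were listed for 8 of the 10 genes, and those with more than the 3 copies that a count of 0 allows are given here. Antisense tags shared with other genes are not in these counts, and their source cannot be told apart: 23 such tags of *Lhx9* had 4440 copies in GC-1spg against 1349 in GC-2spd (ts), 2 of *Wt1* had 3 and 5, and 1 of *Nr2f2* had 9 and 7. With 1 library per line the difference between lines has no replicate check. *Wt1* had 42 unambiguous antisense copies in GC-1spg and none in GC-2spd (ts), the same side as its sense tags. *Lhx9* had 53 unambiguous antisense copies in GC-2spd (ts) and none in GC-1spg, on the side of its sense tags but opposite to the shared tags, and *Nr5a1* had 5 in GC-2spd (ts). *Gata6* had 8 antisense copies in GC-1spg, and *Gata4* had 4 in GC-2spd (ts).

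*Nr2f2* had 108 antisense copies in GC-1spg against 186 in GC-2spd (ts), of which 102 and 165 lay at a CATG that also gave a listed sense tag. *Emx2* had 24 and 25. *Sox9* had 23 and 51, which is 79.3 and 110.9 antisense copies per 100 sense copies. Over all genes the sums gave 13.9 antisense copies per 100 sense copies in GC-1spg, against 12.2 in GC-2spd (ts). Among genes with at least 30 sense copies in GC-2spd (ts), 1.19% had a higher ratio than *Sox9*.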

How the results depend on the processing

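Of 135 values of the 9 listed genes under 15 alternatives, 130 kept their direction and their side of the threshold and 0 changed direction. Alternatives that changed only the test or the filter kept the log2 ratio itself, so they could not change its direction. *Wt1*, *Nr5a1* and *Tcf21*, at 0 in 1 library, could not change direction under any scaling. The count is therefore partly fixed in advance. *Gata4*, *Gata6* and the neighbour *Wt1os* lost their call with edgeR's exact test at an assumed BCV of 0.4, *Nr2f2* at 0.2 and 0.4, and *Sox9* was called with antisense tags added. At a BCV of 0.4, 2 of the 10 genes were called higher (*Nr5a1* and *Lhx9*) and 1 lower (*Wt1*). Over all genes, 1684 were called higher and 1133 lower; a BCV of 0.2 gave 511 and 489, a BCV of 0.4 gave 108 and 136, and adding tags of several genes gave 2542 higher. The assumed spread of these tests was not measured here. Depth limits *Tcf21*, *Nr0b1* and *Lhx9* in GC-1spg, where 3 or fewer copies were listed for each. No paired analysis was possible because each line has 1 library.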
